A study of Homo sapiens with 4 samples.

Results

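The clustered protocadherin locus is a stretch of human chromosome 5 that holds the alpha, beta and gamma protocadherin gene clusters side by side. Its SMC1 contacts were taken as every anchor pair with an anchor overlapping chromosome 5 from 140.15 to 140.91 Mb (hg19), and each anchor was placed by its midpoint in an alpha stretch (up to 140.4 Mb), a beta stretch (up to 140.7 Mb) or a gamma stretch. Of 1125468 anchor pairs with at least 1 paired-end tag (PET, 1 sequenced ligation between 2 anchors) in any library, 1224 belonged to the locus. They held 2589 PETs, 0.0922% of all PETs. Both anchors lay in the locus for 506 pairs with 1584 PETs, and 718 pairs with 1005 PETs joined the locus to an anchor outside it. The locus had 45 of the 79850 anchors of the genome, 10 in alpha, 16 in beta and 19 in gamma, numbered here from 1 to 45 along the chromosome.

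Chromatin looping with and without STAG2 was compared by SMC1 HiChIP in A673, an established cell line of Ewing sarcoma, a tumour driven by the EWS-FLI1 fusion protein. In HiChIP, neighbouring DNA ends in fixed nuclei are joined by ligation, and ligations bound by a chosen protein are then enriched with an antibody. The STAG2-null group consisted of 2 libraries of A673 cells edited with Cas9 and grown from single cells, and the wild-type group of 2 libraries of A673 cells with STAG2. Per the labels' protocols both groups went through formaldehyde fixation, restriction digestion, proximity ligation, sonication and SMC1 immunoprecipitation. The labels do not say from how many clones the STAG2-null libraries came, so a property of a clone and the loss of STAG2 cannot be told apart. Nothing says that libraries of a group were separate cultures, so every p-value here reflects just the spread between libraries, and that spread may be technical. No transcripts or proteins were measured, so the loss of STAG2 was not checked in these files.

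Clustered protocadherins are cell-surface adhesion proteins of the cadherin superfamily, best known from neurons, where each cell uses its own choice of isoforms and the isoforms on a membrane bind the same isoforms on other cells. In the alpha and gamma clusters each variable first exon has its own promoter and is spliced to constant exons shared by the cluster, whereas each beta gene has a single exon. Most of these promoters carry a conserved sequence element with the core letters CGCT, close to sites bound by CTCF, and cohesin held at CTCF sites joins promoters to enhancers downstream in the locus. SMC1 is a core subunit of the cohesin ring, and STAG2 and STAG1 are alternative subunits that bind to it.

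Stretches around a CGCT are shown for promoters from each cluster, since this core is common among the promoters of the locus and its flanks differ between clusters. Sequences are from RefSeq (GRCh38.p14, chromosome 5, plus strand), in lower case with the letters CGCT in capitals, and those shown were chosen to span each cluster, with the first plus-strand CGCT near the start of each gene. A match of 4 letters does not by itself show the conserved element. The coordinates printed are of another build than the anchors and cannot be set against them.
PCDHA1 (chr5:140786077-140786130): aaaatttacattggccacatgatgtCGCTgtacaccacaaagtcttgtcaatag
PCDHA6 (chr5:140827888-140827941): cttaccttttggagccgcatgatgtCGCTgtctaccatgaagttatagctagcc
PCDHA12 (chr5:140875235-140875288): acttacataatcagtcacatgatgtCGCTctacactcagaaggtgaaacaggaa
PCDHB2 (chr5:141094535-141094588): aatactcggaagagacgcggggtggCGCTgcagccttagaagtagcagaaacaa
PCDHB5 (chr5:141135170-141135223): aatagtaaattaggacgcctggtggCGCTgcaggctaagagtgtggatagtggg
PCDHB15 (chr5:141245305-141245358): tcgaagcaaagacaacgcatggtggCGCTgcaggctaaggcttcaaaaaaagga
PCDHGA1 (chr5:141330394-141330447): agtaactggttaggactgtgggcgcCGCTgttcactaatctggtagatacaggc
PCDHGA6 (chr5:141373826-141373879): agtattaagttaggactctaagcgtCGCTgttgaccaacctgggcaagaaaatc
PCDHGB4 (chr5:141387608-141387661): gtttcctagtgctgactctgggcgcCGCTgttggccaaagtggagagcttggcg
PCDHGC3 (chr5:141475871-141475924): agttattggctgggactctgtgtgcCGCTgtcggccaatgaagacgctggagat

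Promoter windows, from 250 bases before to 50 bases after each gene's start, were matched by symbol for 47 of 53 clustered protocadherin genes, with 52 windows in all. The letters CGCT, searched on both strands, were present in 51 of the 52 windows, and these 4 letters are common, being present in 70.0% of all 35116 windows of the genome. A CGCT on the plus strand lay between 110 bases before and 10 bases after the start in 45 of the 52 windows, against 33.1% of all windows. The longer run GGTGGCGCT, which ends in CGCT and was picked after the beta promoters had been read, was present in 13 of 14 beta windows, in 0 of 13 alpha windows and in 0 of 25 gamma windows, against 0.501% of all windows. A match describes the letters only, and none of these promoters could be placed at an anchor, because the anchors are in hg19 and the tables used here pair no anchor of the locus with a gene.

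In total 682724 PETs were counted in STAG2-null 1 and 698002 in STAG2-null 2, against 661881 in wild-type 1 and 765017 in wild-type 2. The locus held 606 and 687 PETs in the STAG2-null libraries, against 624 and 672 PETs in the wild-type libraries. Per 100000 PETs of its library it had 88.8 and 98.4 in STAG2-null, against 94.3 and 87.8 in wild-type, so the groups overlapped. The Wilson intervals of these rates (95%) ran from 81.4 to 106 over the 4 libraries and cover counting error only, as do all counting intervals here, since PETs without molecular identifiers are not independent molecules. The share of the locus's PETs that stayed inside it was 61.8% ± 0.543 in STAG2-null and 60.6% ± 0.882 in wild-type (SD, n = 2 each), with no overlap of the groups and p = 0.333 by a two-sided exact permutation test, the smallest p that 2 against 2 libraries allow. A PET count is an average over many cells, so fewer cells with a contact and a contact made less often in each cell cannot be told apart.

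PETs were unevenly spread over the 45 anchors. An anchor of the locus had a median of 84 PETs over the 4 libraries, against 41 for all anchors of the genome, and the range ran from 17 to 236. The 10 anchors with the most PETs were anchors 4, 6 and 10 in alpha, anchors 11, 19 and 20 in beta, and anchors 39, 42, 44 and 45 in gamma. Anchors differ in length, from 1267 to 6499 bp, and a longer anchor can collect more ligations. Per kb of anchor, anchor 39 (140854661 to 140858059) led with 68.9 PETs per kb, followed by anchor 4 (140247819 to 140249797) with 63.7 and anchor 25 (140601947 to 140603987) with 59.3. Anchor 11 (140416649 to 140422368), first by its 236 PETs, was 14th per kb with 41.3. The longest gap between neighbouring anchors, 94.9 kb, lay near the end of the beta stretch between anchors 25 and 26, and the next, 52.2 kb, lay in gamma between anchors 38 and 39.

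**Figure D1:**
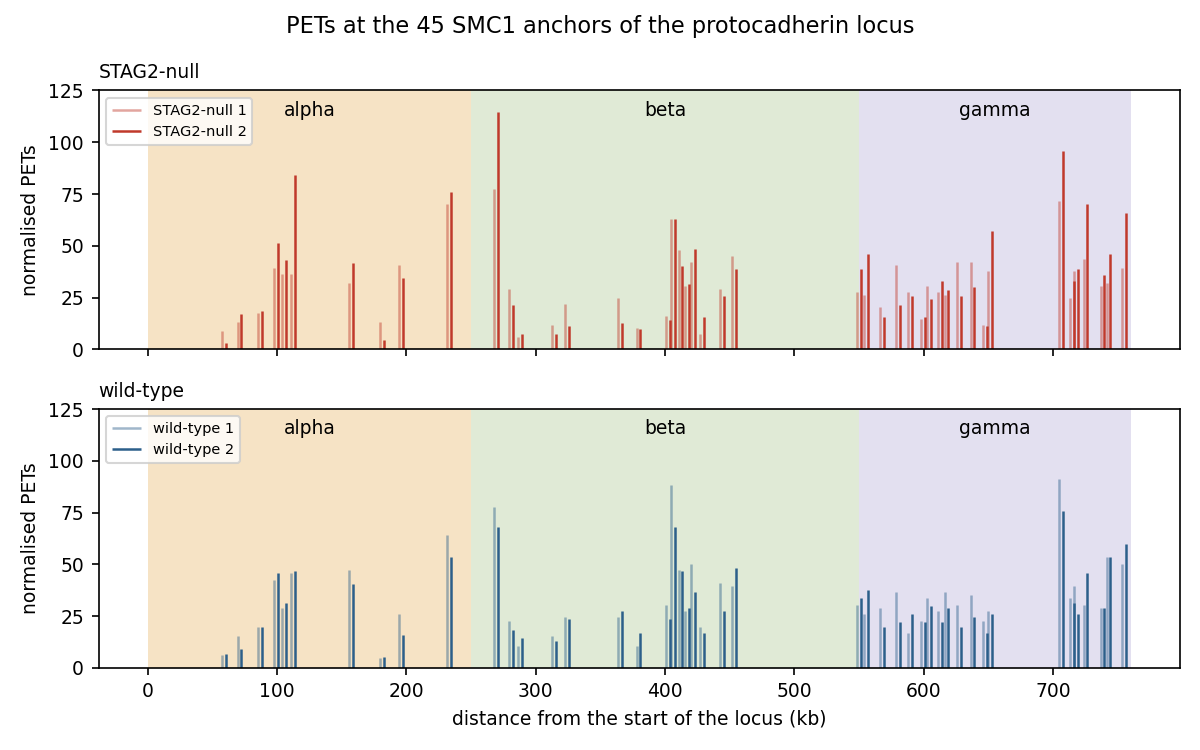
Normalised PETs (per 1000000, after TMM scaling) at each of the 45 anchors against distance from the start of the locus in kb, with the 2 STAG2-null libraries above and the 2 wild-type libraries below; shading marks the alpha, beta and gamma stretches. By PETs over all libraries the leading anchors are, as means, anchor 11 (95.9 in STAG2-null, 72.7 in wild-type), anchor 39 (83.7 in STAG2-null, 83.5 in wild-type) and anchor 19 (62.8 in STAG2-null, 78.1 in wild-type).

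The anchors with the most PETs differed in the stretch they were joined to. Anchor 11 had 53 and 80 PETs in the STAG2-null libraries, against 51 and 52 PETs in the wild-type libraries. Of its 236 PETs, 143 (60.6%) joined it to alpha anchors, 44 to beta, 14 to gamma and 35 to anchors outside the locus. It lies just past the line between alpha and beta, so by position it counts as a beta anchor although most of its contacts were with alpha.

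The contacts of anchor 11 with alpha did not decline with distance. Over all 4 libraries it had 28 PETs with anchor 10, 36.5 kb away, 4 with anchor 9, 73.5 kb away, and 18 with anchor 7, 112.7 kb away. With anchor 6 (140260741 to 140263742), 157 kb away, it had 46 PETs, the most of any pair in the locus. Beyond that it had 16 PETs with anchor 5, 19 with anchor 4 and 7 with anchor 3, and then 3 and 2 with anchors 2 and 1. Its pair with anchor 8, which lies between anchors 7 and 9, held no PETs, so 9 of its 10 possible alpha pairs had any. On its other side it had 13 PETs with anchor 12, 11.6 kb away, and at most 7 with any other anchor of beta or gamma.

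**Figure D2:**
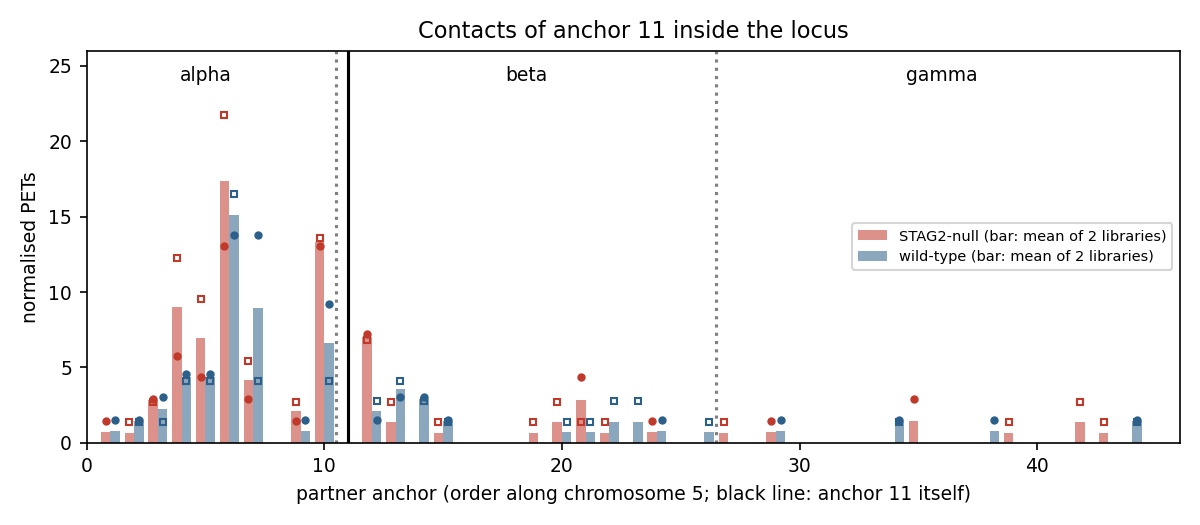
Normalised PETs between anchor 11 (black line) and each other anchor of the locus in order along chromosome 5, with bars for the means of the STAG2-null (left of each pair) and wild-type libraries and points for single libraries (circles replicate 1, squares replicate 2). The highest bars in both genotypes are at anchor 6, with 17.4 in STAG2-null and 15.1 in wild-type.

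In gamma, anchor 39 was joined to gamma anchors by 141 of its 234 PETs (60.3%), to outside anchors by 56, to beta by 30 and to alpha by 7. It had 49 and 67 PETs in STAG2-null, against 60 and 58 in wild-type. Its PETs with anchors 40, 41 and 42, which lie 8.60, 11.2 and 18.7 kb away, numbered 24, 24 and 20. Anchors 42, 44 and 45, near the gamma end of the locus, likewise had 69.4%, 53.8% and 65.8% of their PETs with gamma. In beta, anchor 19 (140553643 to 140558779) had 47.2% of its 197 PETs with beta and 21.8% with gamma, and anchor 20 next to it had 57.8% of 128 PETs with beta. Anchor 6 in alpha divided its 150 PETs almost evenly, with 63 to alpha and 61 to beta. Of those 61, 46 were with anchor 11.

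Contacts within a stretch made up 62.1% of the 1584 internal PETs. Gamma with gamma was the largest class with 500 PETs, followed by beta with beta at 294, beta with gamma at 288, alpha with beta at 253, alpha with alpha at 190 and alpha with gamma, the class that spans the most sequence, at 59. These counts depend on how many anchors a stretch has and how far apart they are. Each class was therefore set against the mean PETs per possible anchor pair at the same distance over the genome, in 7 distance ranges from 5 to 800 kb, a comparison chosen after the counts had been seen and given as a description. Alpha with beta had 1.95 times the PETs of that genome rate, alpha with alpha 1.22, beta with gamma 1.13, alpha with gamma 0.949, gamma with gamma 0.907 and beta with beta 0.792. All internal contacts together were at 1.04 times the rate.

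The high value for alpha with beta came from anchor 11. Its 10 possible pairs with alpha held 143 PETs, 56.5% of the class and 9.63 times the genome rate. The other 150 alpha-beta pairs held 110 PETs, 0.956 times the rate. Anchor 11 was singled out because it had the most PETs in the locus. Its high ratio and the lower one of the other pairs follow in part from that choice. In the contact map the excess appears as a column of dark cells from anchor 11 to anchors 4, 5, 6, 7 and 10. The ratio takes account of distance only and not of anchor length or of how much SMC1 an anchor binds. By distance, the locus was below the genome rate for pairs 5 to 10 kb apart (0.803 times). It was above the rate for pairs 80 to 160 kb apart (1.40 times), a range that held 22.0% of its internal PETs. Of the 348 PETs in that range, 46 joined anchor 11 to anchor 6 and 18 joined it to anchor 7. The ratio of this range without anchor 11 was not computed.

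**Figure D3:**
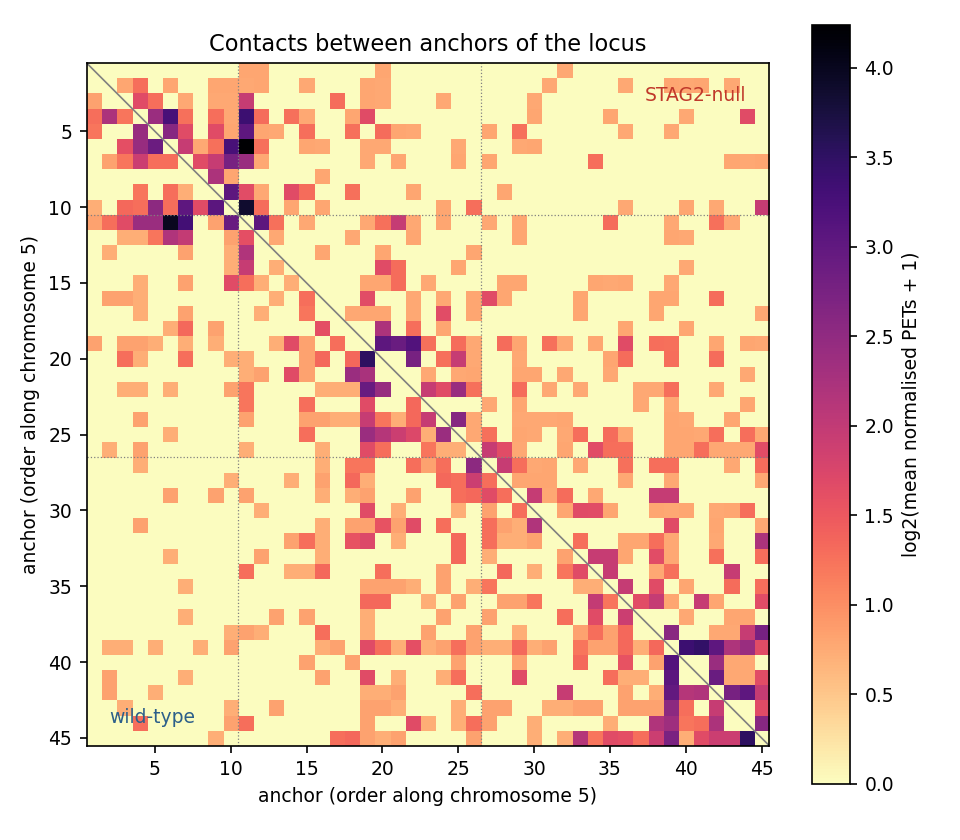
Contacts between the 45 anchors in order along chromosome 5 on both axes, with STAG2-null above the diagonal and wild-type below it, coloured by log2 of the group's mean normalised PETs plus 1; dotted lines part alpha, beta and gamma. In both triangles anchor 11 is joined to alpha anchors 4 to 7 and 10, and anchors 19 to 22 and 39 to 45 form the densest blocks near the diagonal.

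With loss of STAG2, none of the 6 contact classes changed by the test. The PETs of a library were summed over pairs of tiles across the genome, with the 3 stretches as tiles of their own, and compared with edgeR's quasi-likelihood test and Benjamini-Hochberg adjustment over all 18666 tile pairs with at least 20 PETs. Of the 6 classes, 0 had an adjusted p under 0.05, against 2.78% of all tile pairs, and 0 had an unadjusted p under 0.05, against 13.8% of all tile pairs.

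Alpha with beta had 63 and 77 PETs in the STAG2-null libraries, against 59 and 54 PETs in the wild-type libraries. Both STAG2-null counts were the higher ones, and the difference was 0.33 ± 0.20 on the log2 scale (SE, n = 2 each, edgeR adjusted p = 0.477), with a 95% interval from -0.07 to 0.73. At anchor 11 the class had 31 and 51 PETs in STAG2-null, against 35 and 26 PETs in wild-type, so the groups overlapped there. Outside anchor 11 the class had 32 and 26 PETs in STAG2-null, against 24 and 28 PETs in wild-type, and these counts also overlapped. Scaled to library size these were 46.7 and 36.8 in STAG2-null, against 36.7 and 36.8 in wild-type, so STAG2-null 1 stood above the other 3 libraries, which were nearly equal. Moving both stretch lines 30 kb downstream puts anchor 11 in alpha and 2 gamma anchors in beta. Alpha with beta then held 160 PETs in place of 253 and alpha with alpha 333 in place of 190, and the difference in alpha with beta was 0.17 on the log2 scale.

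Beta with gamma had 65 and 62 PETs in STAG2-null, against 88 and 73 PETs in wild-type. Both STAG2-null counts were the lower ones, with a difference of -0.32 ± 0.19 (log2, SE, edgeR adjusted p = 0.458) and an interval from -0.70 to 0.05. Without the wild-type 1 library this difference was -0.08.

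Alpha with gamma had 15 and 20 PETs in STAG2-null, against 8 and 16 PETs in wild-type, and the small counts left the widest interval, from -0.23 to 1.36 around 0.56 (log2, edgeR adjusted p = 0.566). The raw counts of the groups overlapped, while the normalised values did not, with 21.9 and 28.3 in STAG2-null, against 12.2 and 21.0 in wild-type. Alpha with alpha had 44 and 57 PETs in STAG2-null, against 44 and 45 PETs in wild-type, a difference of 0.20 ± 0.23 (log2, edgeR adjusted p = 0.766). Its normalised values overlapped, with 64.2 and 80.7 in STAG2-null, against 67.3 and 59.1 in wild-type.

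Beta with beta had 69 and 69 PETs in STAG2-null, against 73 and 83 PETs in wild-type, and its difference was -0.15 ± 0.19 (log2, SE, edgeR adjusted p = 0.792). Gamma with gamma, the class with the most PETs, had 116 and 142 PETs in STAG2-null, against 110 and 132 PETs in wild-type, so the groups overlapped. Its difference of 0.12 ± 0.15 (log2, SE, edgeR adjusted p = 0.802) had the narrowest interval, from -0.18 to 0.41, which as a ratio of STAG2-null over wild-type runs from 0.885 to 1.33. A p above the threshold does not show that the genotypes were alike, and the intervals leave room for ratios up to 1.65 for alpha with beta and down to 0.617 for beta with gamma.

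**Figure D4:**
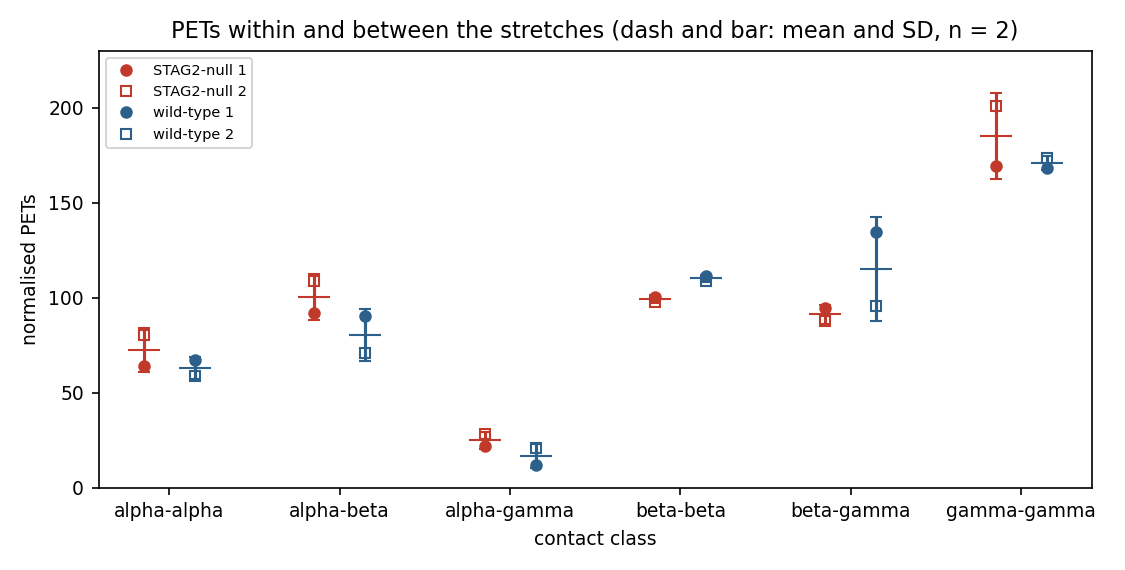
Normalised PETs (per 1000000, after TMM scaling) in each of the 6 contact classes, with STAG2-null left of wild-type in each class; points are libraries (circles replicate 1, squares replicate 2) and dashes with bars the mean and SD of n = 2. Means run from 25.1 in STAG2-null and 16.6 in wild-type for alpha with gamma to 185 in STAG2-null and 171 in wild-type for gamma with gamma.

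The make-up of the locus, read as shares of each library's internal PETs, needs no scaling between libraries. Alpha with beta took 17.5% ± 0.776 of internal PETs in STAG2-null, against 14.4% ± 1.45 in wild-type (SD, n = 2 each). Beta with gamma took 16.0% ± 2.09 in STAG2-null and 20.6% ± 3.48 in wild-type, and gamma with gamma 32.2% ± 1.47 in STAG2-null and 30.8% ± 2.80 in wild-type. Contacts within a stretch, of any of the 3, took 62.2% ± 0.852 in STAG2-null and 62.0% ± 3.60 in wild-type (two-sided exact permutation p = 1). In each class but gamma with gamma the shares of the 2 groups did not overlap. By the two-sided exact permutation test p was 0.333 in each of these classes, the smallest possible, and 0.667 for gamma with gamma. A p of 0.333 by this test is also the rate of such gaps under exchanged labels. Their rate over all tile pairs was not counted, and the test could give no smaller p. The gaps therefore cannot decide whether the shares differ by genotype. With the stretch lines moved 30 kb the exact permutation p was 0.667 for alpha with alpha, alpha with beta and beta with gamma, and with pairs at least 20 kb apart it was 0.667 for alpha with alpha and beta with gamma. The shares of a library sum to the whole, so one class cannot be higher unless another is lower.

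At the level of single anchors, 43 of the 45 had at least 20 PETs and were tested with all 60425 such anchors of the genome, while anchors 1 and 8, with 17 and 19 PETs, were not. None of the 43 was called with edgeR's quasi-likelihood test at an adjusted p under 0.05, against 0.875% of all anchors. Their adjusted p ran from 0.191 to 0.977, and 4 (9.30%) had an unadjusted p under 0.05, against 11.9% of all anchors. The log2 differences had a median of 0.01 and a range from -0.94 to 0.88, and 22 were above 0. By stretch, 6 of 8 tested alpha anchors were above 0 with a median of 0.33, 5 of 16 beta anchors with a median of -0.30, and 11 of 19 gamma anchors with a median of 0.11. A PET counts at both its anchors, so neighbouring anchors are not independent.

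The anchor with the most PETs, anchor 11, had a difference of 0.41 ± 0.21 (log2, SE, edgeR adjusted p = 0.440), and it rested on the 80 PETs of the STAG2-null 2 library. Without that library the difference was 0.098. Anchor 39 differed by 0.01 ± 0.21 (adjusted p = 0.977), with an interval from -0.40 to 0.43. Anchor 6 had 25 and 59 PETs in STAG2-null, against 30 and 36 PETs in wild-type, so the STAG2-null libraries lay on both sides of the wild-type ones. Its difference of 0.39 ± 0.26 (log2, SE, edgeR adjusted p = 0.591) turned to -0.34 without STAG2-null 2. Anchor 10 (140380420 to 140385573) had 48 and 53 PETs in STAG2-null, against 42 and 41 in wild-type, with a difference of 0.32 ± 0.24 (adjusted p = 0.630), or 0.20 without wild-type 2. Anchor 19 had 43 and 44 PETs in STAG2-null, against 58 and 52 in wild-type, with a difference of -0.30 ± 0.23 (adjusted p = 0.640), or -0.11 without wild-type 1. In both of these the groups did not overlap.

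Anchor 44 (140890492 to 140895336), close to the gamma end, had 22 and 32 PETs in STAG2-null, against 35 and 41 in wild-type, with no overlap and a difference of -0.45 ± 0.28 (log2, SE, edgeR adjusted p = 0.533), which was -0.73 without STAG2-null 2 and -0.22 without STAG2-null 1. Its neighbour, anchor 45 (140903385 to 140906326), had 27 and 46 PETs in STAG2-null, against 33 and 46 in wild-type, so the groups overlapped. Anchor 20 (140560642 to 140563247) had 33 and 28 PETs in STAG2-null, against 31 and 36 in wild-type, and also overlapped. Anchor 4 had 27 and 36 PETs in STAG2-null, against 28 and 35 in wild-type, where the counts of the groups nearly coincided.

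The 4 anchors with an unadjusted p under 0.05 are named after their values were seen. Anchor 38 (140799739 to 140802479, gamma) had 26 and 40 PETs in STAG2-null, against 18 and 20 in wild-type (log2 difference 0.83, edgeR adjusted p = 0.191). Anchor 9 (140344880 to 140347076, alpha) had 28 and 24 PETs in STAG2-null, against 17 and 12 in wild-type (0.88, adjusted p = 0.232). Anchor 42 (140873631 to 140876528, gamma) had 30 and 49 PETs in STAG2-null, against 20 and 35 in wild-type, where the groups overlap (0.56, adjusted p = 0.390, or 0.18 without STAG2-null 2 and 0.91 without wild-type 2). Anchor 18 (140551465 to 140553016, beta) was the one with lower values in STAG2-null, with 11 and 10 PETs in STAG2-null, against 20 and 18 in wild-type (-0.81, adjusted p = 0.395). Such anchors were no more frequent in the locus than over the genome.

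**Figure D5:**
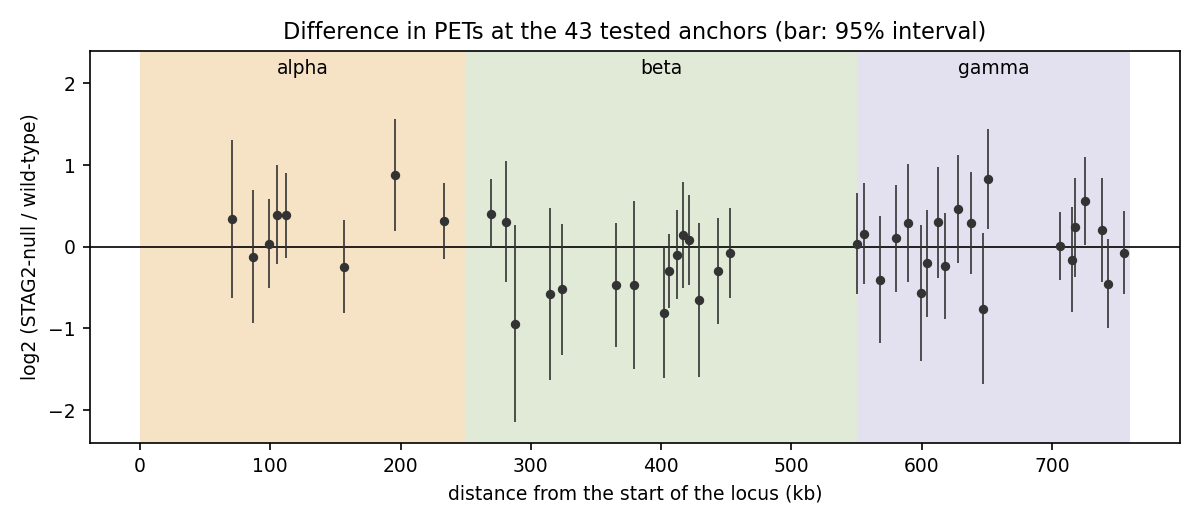
Log2 ratio of PETs, STAG2-null over wild-type, at each of the 43 tested anchors against distance from the start of the locus in kb, with bars for the 95% interval; shading marks the stretches. Points lie on both sides of 0 between -0.94 and 0.88, and all bars but 4 cross 0.

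Most pairs of the locus were sparse. A single PET over the 4 libraries made up 805 of the 1224 pairs (65.8%), and 60 pairs had a PET in every library. At least 20 PETs, the level at which a pair was tested as a loop, were reached by 9 pairs, and 22 more had between 10 and 19. The 9 loops were numbered by their PETs; 2 joined alpha anchors 6 and 10 to anchor 11, 1 lay in alpha, 2 lay in beta at anchor 19, and 4 lay in gamma. By edgeR's quasi-likelihood test on all 11872 loops of the genome, 0 of the 9 had an adjusted p under 0.05, against 0.194% of all loops, and 0 had an unadjusted p under 0.05, against 9.59%. DESeq2 likewise called 0 of the 9.

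Loop 1, between anchors 6 and 11, had 9 and 16 PETs in the STAG2-null libraries, against 9 and 12 PETs in the wild-type libraries. One library of each genotype had the same count, and the difference was 0.20 ± 0.46 (log2, SE, edgeR adjusted p = 0.915). Its 46 PETs were 32.4 times the genome rate of anchor pairs 80 to 160 kb apart. That rate is a mean over all possible pairs, and loop 1 was picked for having the most PETs in the locus, so a high ratio follows in part from the choice. Of 163 loops of the genome between 150 and 170 kb long, 21 had as many PETs or more, loop 1 included.

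Loop 2, between anchors 10 and 11, had 9 and 10 PETs in STAG2-null, against 6 and 3 PETs in wild-type. Both STAG2-null counts were higher, with a difference of 1.01 ± 0.62 (log2, SE, edgeR adjusted p = 0.576) and an interval from -0.21 to 2.23, and it ran from 0.53 without wild-type 2 to 1.65 without wild-type 1. Loop 6, between anchors 44 and 45 at the gamma end, went the other way, with 3 and 4 PETs in STAG2-null, against 6 and 9 PETs in wild-type. Its difference was -1.12 ± 0.70 (log2, SE, edgeR adjusted p = 0.576), with an interval from -2.48 to 0.24.

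Of the other loops, loop 3 between anchors 19 and 20 had 7 and 3 PETs in STAG2-null, against 6 and 9 in wild-type, and loop 8 between anchors 19 and 22 had 5 and 6 in STAG2-null, against 6 and 3 in wild-type. Loop 7 between alpha anchors 9 and 10 had 6 and 4 PETs in STAG2-null, against 7 and 3 in wild-type. The loops from anchor 39 had 5 and 8 PETs in STAG2-null, against 6 and 5 in wild-type (loop 4, to anchor 40), 10 and 4 in STAG2-null, against 7 and 3 in wild-type (loop 5, to anchor 41), and 1 and 9 in STAG2-null, against 3 and 7 in wild-type (loop 9, to anchor 42). In each of these 6 loops the groups overlapped, and their adjusted p lay above that of loops 2 and 6.

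Among the 31 pairs with at least 10 PETs, fitted with all 39602 such pairs of the genome, 0 had an edgeR adjusted p under 0.05, against 0% of all such pairs, and 1 had an unadjusted p under 0.05, against 6.73% of all such pairs. It joined alpha anchors 6 and 10, which are 121 kb apart, with 4 and 8 PETs in STAG2-null, against 1 and 1 in wild-type (unadjusted p = 0.0107, edgeR adjusted p = 0.611). Both its anchors are also joined to anchor 11. The rest of the 31 comprised 5 further alpha-alpha pairs, 5 alpha-beta pairs, 6 beta-beta pairs, 1 beta-gamma pair, 12 gamma-gamma pairs and 1 pair from gamma to outside. All 5 alpha-beta pairs were at anchor 11.

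The 1005 PETs of the locus with outside anchors were spread over 154 such anchors, and the largest counts lay at a group just downstream. The 3 outside anchors with the most PETs to the locus began 29.6 kb (140939575 to 140941720), 26.2 kb (140936241 to 140938558) and 32.4 kb (140942442 to 140944788) past its end, with 134, 95 and 69 PETs. The first of them had 33 and 42 PETs to the locus in STAG2-null, against 30 and 29 in wild-type, and both STAG2-null counts were higher. The second had 20 and 26 in STAG2-null, against 30 and 19 in wild-type, and the third 15 and 23 in STAG2-null, against 15 and 16 in wild-type, so these groups overlapped or met. They were given as counts and not tested. Gamma anchors accounted for 92, 69 and 45 of these PETs, and the first reached 35 of the 45 anchors of the locus. Gamma as a whole had 436 PETs downstream of the locus and 65 upstream of it, and beta 231 downstream and 86 upstream. Alpha had 79 downstream and 108 upstream. The reason for these sides was not tested.

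In the authors' deposited table of 22680 high-confidence loops, 19 had both anchors in the locus. By class these were 5 alpha-alpha, 4 alpha-beta, 4 beta-beta and 6 gamma-gamma loops, and no loop of that table joined gamma to another stretch. The authors' deposited table of differential loops holds 650 of the high-confidence loops (2.87%), and 0 of the 19 in the locus were among them.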

How the data were processed

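Per library, the authors deposited a count of PETs for every anchor pair with at least 1 PET, and a p-value for each. HiC-Pro and hg19 were used per the submitters' processing notes, which give no versions. The loop caller's settings were not given in the sources used here, nor was any adjustment of that p-value. Coordinates are printed as deposited. The deposited p-value served only as an alternative filter. The table of high-confidence loops gives counts and a false discovery rate (FDR) per loop, per the file headers. The largest FDR in it was 0.009997.

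Counts were summed per anchor pair, per anchor and per pair of 250-kb tiles, and features with at least 20 PETs over the 4 libraries were compared on genotype alone by the quasi-likelihood test of edgeR 4.0.16 (under R 4.3.3), with TMM factors and library totals over all pairs. Normalised PETs are per 1000000 of that scaled total. Intervals are the estimate plus or minus 1.96 SE. Shares were compared by exact permutation (scipy 1.17.1). Alternatives were DESeq2 1.42.0, other scalings and filters, merged anchors, moved stretch lines and leaving out each library. The fits were also run on simulated data with large known changes, which does not show whether changes as small as most seen here would be found.

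Named loops were the 10 with the most PETs, of which 9 were tested, and the 3 with the smallest p in each direction; named anchors were the 10 with the most PETs, with any called. The locus, its stretches and the gene lists were chosen with earlier results of these data known. Single-library totals of 661881 to 765017 PETs give few PETs per pair, which limits the precision of single loops.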

Additional observations from a re-analysis of the deposited data

How the results depend on the processing

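No loop, anchor or contact class of the locus was called with edgeR under any alternative tried, and DESeq2 called 0 of the 9 loops; for the anchors and classes DESeq2 gave no adjusted p, so it has no count there. Over the genome the calls moved more, with 529 anchors by the chosen fit, 105 when scaled by chromosome and 0 when scaled by 10 Mb window, all of 60425 tested; DESeq2 called 22 of the 3022 to which it gave an adjusted p. Loops called numbered 23, 10 and 6 under those edgeR fits and 0 by DESeq2, of 11872 each. Scaling per 10 Mb window moved the median log2 difference of all loops to 0.12, against -0.04 in the chosen fit. The labels tie nothing to the replicate numbers. Deviations of same-numbered libraries correlated with r = 0.00631 over all 60425 tested anchors and r = 0.333 over the 43 of the locus, with 2 numbers only, so the libraries were not taken as paired. The fit with the replicate number as a block gave 0 calls in the locus and changed no other call there. Of the 6 classes, 5 kept their direction under every alternative. Gamma with gamma turned to -0.076 with pairs of deposited p under 0.05 and to -0.13 with pairs of at most 4 PETs, and ran from -0.015 to 0.23 (log2) with each library left out. Its share difference ran from -0.535 to 3.42 percentage points with each library left out. Ranges with each library left out were 0.03 to 0.35 for alpha with alpha, 0.16 to 0.50 for alpha with beta, 0.25 to 1.03 for alpha with gamma, -0.18 to -0.13 for beta with beta (-0.46 with pairs of at most 4 PETs, -0.37 with pairs at least 20 kb apart and -0.10 with pairs of deposited p under 0.05) and -0.56 to -0.08 for beta with gamma. Loops ran from -0.22 to 0.51 (loop 1), -1.37 to -0.098 (loop 3), -1.31 to -0.88 (loop 6), -0.14 to 0.44 (loop 4), -0.40 to 1.22 (loop 5), -0.60 to 0.74 (loop 7), -0.24 to 0.87 (loop 8) and -2.19 to 0.74 (loop 9). Anchors ran from -0.21 to 0.21 (anchor 39), 0.10 to 0.66 (anchor 11), -0.49 to 0.25 (anchor 45), -0.34 to 0.86 (anchor 6), -0.23 to 0.035 (anchor 20) and -0.16 to 0.22 (anchor 4). Loops 7 and 9 also turned to 0.044 and 0.047 with plain library totals, 0.017 and 0.018 with scaling per chromosome, and 0.068 and 0.074 with anchors merged within 5 kb. Anchor 39 turned to -0.0086 with scaling per chromosome, -0.031 per 10 Mb window and -0.063 with pairs at least 20 kb apart, anchor 4 to -0.0045 per 10 Mb window and -0.14 with pairs at least 20 kb apart, and anchor 45 to 0.15 with the latter. The cause of these turns was not tested.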

Other observations

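From anchor 13 to anchor 20 (140436904 to 140563247), 8 neighbouring anchors of the beta stretch all had log2 differences below 0, from -0.94 to -0.09, with adjusted p values of 0.395 or more by edgeR's quasi-likelihood test. Their anchor totals summed to 138 and 116 in the STAG2-null libraries, against 165 and 179 in the wild-type libraries. A PET joining a pair of these anchors was counted at both, so the sums exceed the number of PETs. This was the longest run on one side of 0 in the locus, it was picked after the values had been seen, and it was given no test, since neighbouring anchors share PETs.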
